A study of Mus musculus with 8 samples.

Results

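Transcripts of the Hippo pathway and of its nuclear effectors were read in slow-cycling and other biliary cells of the mouse liver. The group holds 10 genes of the 46603 in the count table, chosen by name: Yap1, Wwtr1, Tead1, Tead2, Tead3, Tead4, Lats1, Lats2, Nf2 and Amotl2. Cells that were positive for EpCAM and negative for CD45 were sorted from the livers of 4 mice (JV602, JV621, JV624 and JV6314), and each mouse gave 1 EGFP-positive and 1 EGFP-negative library. All mice were R26rtTA het/H2B-EGFP het: a transactivator in the Rosa26 locus, which is active in all tissues, switches on a histone H2B-EGFP fusion when doxycycline is present. Both libraries of a mouse therefore share the transgenes, the doxycycline given from birth until postnatal day 5 and an age of 8 weeks at the sort. They differ in whether the green label was kept. LLRCs stands for the EGFP-positive, label-retaining cells and non-LRC cells for the EGFP-negative ones. The label is diluted at each division, and the study notes that hematopoietic cells of these mice can be green without doxycycline.

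The Hippo pathway is a kinase cascade that restrains growth of epithelial organs, and the liver is one of the organs in which it is best known. The kinases MST1 and MST2, with the adaptors SAV1 and MOB1, activate LATS1 and LATS2, which phosphorylate the coactivators YAP (Yap1) and TAZ (Wwtr1) and keep them out of the nucleus. Unphosphorylated YAP and TAZ bind the TEAD transcription factors and switch on genes such as Ccn1, Ccn2 and Ankrd1, and also Lats2 and Amotl2, which feed back on the pathway. In the liver, YAP is known for its higher activity in bile duct cells than in hepatocytes. Activity of YAP and TAZ is set mainly by phosphorylation and location, which transcript counts do not measure.

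TEAD factors bind the letters GGAATG, which read CATTCC on the other strand. This motif was searched on both strands in RefSeq promoter windows of GRCm38.p6, which run from 250 bases before to 50 bases after a gene's start. It stood in 14.7% of 32851 windows and in at least 1 window of 16.6% of 27025 genes. Of the 10 members, 8 had a window, and 5 of these (Yap1, Wwtr1, Tead3, Lats2 and Amotl2) held the motif, while the windows of Tead2, Lats1 and Nf2 did not. Of the 22 target genes listed for YAP and TAZ, 15 had a window and 7 of them held the motif. The windows of both coactivators, both LATS kinases and 3 target genes are shown, because these genes form the core and the feedback of the pathway. The 3 target genes shown (Amotl2, Ccn1 and Ankrd1) all hold the motif, unlike most of the 15, and no window was found for Ccn2. The motif is in capitals, and each window is printed in the direction of transcription. For Wwtr1 and Lats2, which have 2 windows each, the window that starts farther upstream is shown. The other window of Wwtr1 holds the same match, 170 bases before its own start, and the other window of Lats2 (chr14:57734369-57734668) holds none. A match is a description of the letters and not a measured binding site.
Yap1, chr9:8004547-8004846, minus strand: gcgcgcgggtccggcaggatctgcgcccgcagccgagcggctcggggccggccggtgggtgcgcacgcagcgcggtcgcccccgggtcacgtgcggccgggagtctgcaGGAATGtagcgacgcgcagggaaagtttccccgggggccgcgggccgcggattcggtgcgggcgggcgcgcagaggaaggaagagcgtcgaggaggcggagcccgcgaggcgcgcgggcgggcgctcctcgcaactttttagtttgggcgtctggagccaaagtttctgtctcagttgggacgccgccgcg
Wwtr1, chr3:57575861-57576160, minus strand: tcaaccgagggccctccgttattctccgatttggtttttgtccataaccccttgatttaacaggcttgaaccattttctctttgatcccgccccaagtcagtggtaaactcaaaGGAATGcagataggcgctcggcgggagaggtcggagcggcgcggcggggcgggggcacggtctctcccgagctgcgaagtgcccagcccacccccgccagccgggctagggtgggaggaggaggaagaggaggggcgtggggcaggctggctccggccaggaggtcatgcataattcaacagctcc
Lats1, chr10:7680959-7681258, plus strand: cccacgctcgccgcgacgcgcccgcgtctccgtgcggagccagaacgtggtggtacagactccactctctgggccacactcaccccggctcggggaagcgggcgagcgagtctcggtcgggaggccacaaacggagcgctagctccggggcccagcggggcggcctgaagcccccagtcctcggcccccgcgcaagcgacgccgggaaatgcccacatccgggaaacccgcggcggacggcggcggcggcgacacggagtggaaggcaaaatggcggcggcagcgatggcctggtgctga
Lats2, chr14:57746074-57746373, minus strand: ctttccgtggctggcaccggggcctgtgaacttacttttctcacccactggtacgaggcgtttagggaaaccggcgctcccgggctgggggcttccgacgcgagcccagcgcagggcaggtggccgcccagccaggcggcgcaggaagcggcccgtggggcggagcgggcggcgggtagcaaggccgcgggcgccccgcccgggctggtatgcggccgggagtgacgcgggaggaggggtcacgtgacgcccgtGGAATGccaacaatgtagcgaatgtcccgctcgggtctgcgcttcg
Amotl2, chr9:102717554-102717853, plus strand: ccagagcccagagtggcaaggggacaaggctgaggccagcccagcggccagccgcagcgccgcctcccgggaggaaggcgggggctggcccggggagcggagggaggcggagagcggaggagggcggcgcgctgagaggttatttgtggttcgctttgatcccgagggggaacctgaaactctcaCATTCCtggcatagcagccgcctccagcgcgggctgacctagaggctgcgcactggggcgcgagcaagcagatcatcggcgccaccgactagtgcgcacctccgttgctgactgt
Ccn1, chr3:145649936-145650235, minus strand: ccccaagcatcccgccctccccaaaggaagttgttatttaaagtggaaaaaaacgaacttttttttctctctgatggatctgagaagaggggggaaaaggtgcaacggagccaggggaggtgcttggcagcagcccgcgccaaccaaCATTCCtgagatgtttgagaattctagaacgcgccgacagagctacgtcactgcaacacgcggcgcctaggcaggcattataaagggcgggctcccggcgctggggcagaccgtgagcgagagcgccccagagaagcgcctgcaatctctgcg
Ankrd1, chr19:36119795-36120094, minus strand: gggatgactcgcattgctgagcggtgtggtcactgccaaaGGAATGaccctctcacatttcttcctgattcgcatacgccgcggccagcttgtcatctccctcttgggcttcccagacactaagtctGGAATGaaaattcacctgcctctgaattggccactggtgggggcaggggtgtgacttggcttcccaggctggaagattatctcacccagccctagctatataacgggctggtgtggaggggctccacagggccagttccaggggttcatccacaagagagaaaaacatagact
The match began 141 bases before the start in Yap1, 136 in Wwtr1, 65 in Amotl2 and 103 in Ccn1, and in Lats2 it began at base 5 of the transcript. Ankrd1 held the motif at 210 and at 123 bases before its start.

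Sequencing gave 7860021 to 9851819 counted reads per LLRC library and 4670132 to 8056103 per non-LRC library. Values are given as CPM, the counts divided by TMM-scaled library size, and 3 counts correspond to between 0.291 and 0.626 CPM. Genes detected were fewest, at 14234, in the non-LRC library of JV621, and between 16042 and 20430 in the others. The labelled cell type was checked against its markers. None of the 14 cholangiocyte markers was at 0 throughout a group, and Krt19 stood at 89.1 to 143.7 CPM in LLRCs and at 94.6 to 172.4 CPM in non-LRC cells. Of these markers 11 had a positive and 3 a negative log2 fold change, and 2 had an unadjusted p below 0.05: Cftr, higher in LLRCs (148.7 against 55.0 CPM, log2 fold change 1.43, adjusted p = 0.688 in edgeR's test), and Aqp1, lower in every LLRC library (5.89 against 99.5 CPM, log2 fold change -4.07, adjusted p = 0.0809). Aqp1 is also made by endothelial cells. Markers of other cells were also read, and of their sums only the endothelial one separated the groups. The 18 endothelial markers summed to 33.9 to 79.7 CPM in LLRCs and to 229.6 to 1120.3 CPM in non-LRC cells, with a lower mean in LLRCs for 18 of 18 and none at 0 throughout either group. The 12 stellate cell and fibroblast markers summed to 275.7 to 908.9 CPM and to 703.7 to 2887 CPM, with a lower mean in LLRCs for 11 of 12. Within each mouse that sum was lower in the LLRC library, though the ranges of the groups overlapped. For 12 hepatocyte markers the sums were 2947 to 3448 CPM and 2214 to 7176 CPM. The mean was lower in LLRCs for 11 of the 12, 7 of them with an unadjusted p below 0.05, and the median log2 fold change was -1.71. Their sum was lower in LLRCs of JV624 (2947 against 7176 CPM) and JV6314 (3448 against 6464 CPM). It was higher in LLRCs of JV602 (3340 against 3176 CPM) and JV621 (3187 against 2214 CPM). Of the 12 markers, 5 were lower in LLRCs of all 4 mice, against 5.53% of genes tested. Hematopoietic markers summed to 42.1 to 76.1 CPM and 49.9 to 100.4 CPM, with a lower mean in LLRCs for 9 of 12. Ptprc, which goes against most of the list and encodes the CD45 of the sort, had 5, 34, 14 and 59 counts in LLRCs against 0, 0, 0 and 7 counts, and its part in the values of the members was not tested. The 10 acinar markers reached 1104 CPM in the non-LRC library of JV6314, against 22.9 CPM or less elsewhere. In bulk samples such as these, fewer cells of a type and less RNA per cell cannot be told apart.

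The first question was how strongly each member was transcribed. Per kilobase of exon, Wwtr1 had the highest mean level of the 10 genes in both groups, at 9.92 ± 1.41 CPM per kilobase in LLRCs and 16.6 ± 14.4 in non-LRC cells (SD, n = 4). Lats2 came next, at 7.05 ± 1.95 and 15.2 ± 16.2 CPM per kilobase. In LLRCs the order went on with Lats1 (5.94), Amotl2 (4.46), Tead1 (3.78), Yap1 (2.41), Nf2 (1.38), Tead2 (1.33), Tead3 (0.0917) and Tead4 (0.0750 CPM per kilobase). In non-LRC cells it went on with Amotl2 (5.42), Lats1 (2.74), Yap1 (2.58), Tead1 (2.20), Tead2 (1.54), Nf2 (1.27), Tead4 (0.493) and Tead3 (0.131 CPM per kilobase). Most neighbours in these orders were not separated. The ranges over 4 libraries overlapped for 8 of 9 neighbouring pairs in each group, the exceptions being Tead2 over Tead3 in LLRCs and Tead4 over Tead3 in non-LRC cells. Among the TEAD genes, Tead3 and Tead4 lay below Tead1 and Tead2 in each of the 8 libraries. When the longest coding transcript was used as the length, the level of Yap1 was 5.36 CPM per kilobase in LLRCs and 5.72 in non-LRC cells, Yap1 stood at rank 5 and rank 4 of the orders, and Lats2 passed Wwtr1 in non-LRC cells.

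**Figure D1:**
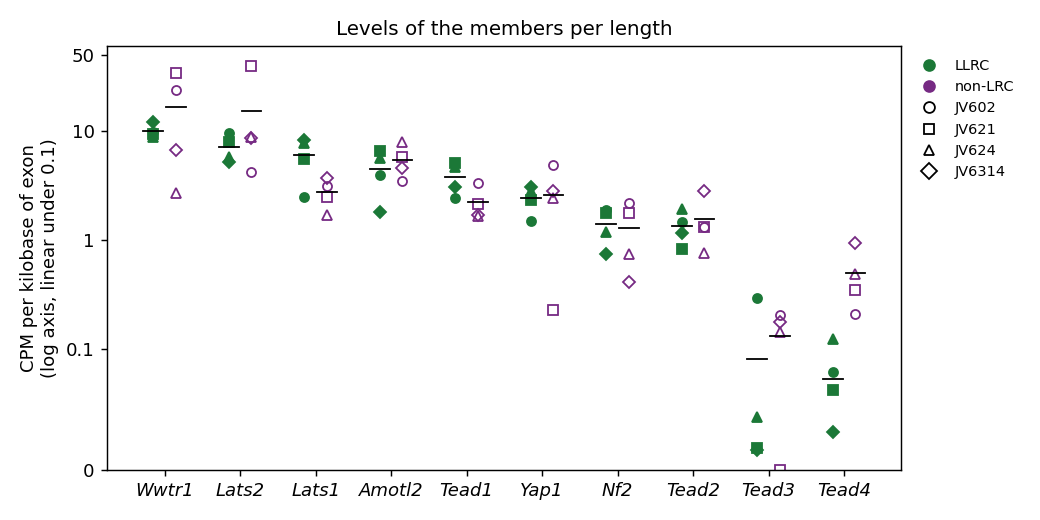
Level of each member as CPM per kilobase of merged exons (log axis, linear under 0.1), in the order of the LLRC means. Filled green symbols are LLRC libraries, open purple symbols are non-LRC libraries, the shape marks the mouse and black lines are means of 4 libraries. Wwtr1 and Lats2 stand highest, Yap1, Wwtr1 and Lats2 spread widely in non-LRC cells, and Tead3 and Tead4 lie below 1.

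The comparison that the design implies is LLRCs against non-LRC cells. Of the 10 members, 8 passed the expression filter, and 0 of the 8 had an adjusted p below 0.05 in edgeR's quasi-likelihood test, where the share over all 13605 genes tested was 0% as well. Lats1 was the only one of the 8 with an unadjusted p below 0.05 (0.0334), and with the mouse as a block, which pairs the libraries, its p was 0.0854 and 0 of the 8 members were below 0.05. Over all genes tested, 702 had an unadjusted p below 0.05, made up of 1.6% of genes with a higher and 3.56% with a lower value in LLRCs. DESeq2, edgeR's exact test and limma also called 0 of the 8 members, though they called 221, 159 and 29 genes in the whole table. Of the 8 members, 3 (Tead1, Lats1 and Nf2) had a positive and 5 a negative log2 fold change (LLRC over non-LRC), with a median of -0.16 against -0.01 over all genes tested. In none of the 8 did the libraries of the groups separate completely, which 4.06% of the genes tested did in one direction or the other. None of the 8 differed in the same direction in all 4 mice, while 7.74% of genes tested were higher and 5.53% lower in the LLRC library of every mouse. With 4 libraries against 4, the smallest exact permutation p is 0.029, and over 4 mice the smallest exact sign-flip p is 0.125.

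**Figure D2:**
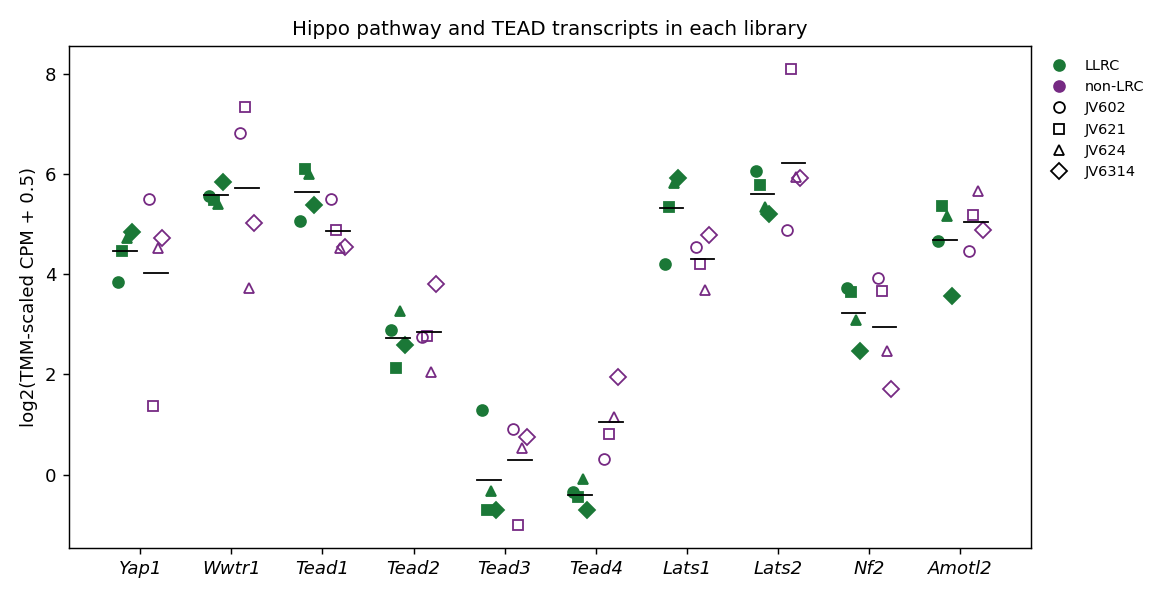
Level of each member in each of the 8 libraries, as log2(TMM-scaled CPM + 0.5). Filled green symbols are LLRC libraries, open purple symbols are non-LRC libraries, the shape marks the mouse and black lines are group means of the log2 values. The groups overlap for every member except Tead4, and the non-LRC library of JV621 holds the lowest Yap1 and the highest Wwtr1 and Lats2 values.

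The coactivators differed more between the non-LRC libraries than between LLRCs and non-LRC cells. Yap1 (ENSMUSG00000053110, chromosome 9, 7931999 to 8004596 of GRCm38, minus strand) stood at 13.9, 21.5, 25.9 and 28.1 CPM in LLRCs, with the mice in the order JV602, JV621, JV624 and JV6314. In the non-LRC libraries of the same mice it stood at 45.0, 2.09, 22.4 and 26.0 CPM. JV602 was thus the highest and JV621 by far the lowest of the non-LRC libraries, and the 4 LLRC values lay between them. The means were 22.3 ± 6.28 and 23.9 ± 17.6 CPM (SD, n = 4), and the log2 fold change was -0.10 (SE, standard error, 0.70; 95% interval -1.69 to 1.49, adjusted p = 1 in edgeR's quasi-likelihood test). Within a mouse, the log2 difference (LLRC minus non-LRC, of CPM + 0.5) was -1.66 in JV602, 3.09 in JV621, 0.20 in JV624 and 0.11 in JV6314. The sign of the overall value depended on the setting: it was 0.46 in limma, 0.36 with the mouse as a block, and 0.40 when the non-LRC library of JV602 was left out.

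Wwtr1, which encodes TAZ (ENSMUSG00000027803, chromosome 3, 57455649 to 57575910, minus strand), was the steadier coactivator among LLRCs. It stood at 46.8, 44.4, 41.5 and 57.0 CPM in the LLRC libraries and at 111.8, 160.2, 12.8 and 32.0 CPM in the non-LRC libraries, in the same order of mice. JV602 and JV621 had more Wwtr1 in non-LRC cells, and JV624 and JV6314 had more in LLRCs. The highest value, in the non-LRC library of JV621, came with the highest endothelial sum (1120.3 CPM) and the fewest genes detected (14234). Their part in that value was not tested. The log2 fold change was -0.74 (SE 0.66, 95% interval -2.24 to 0.76, adjusted p = 1 in edgeR's test), and it was -0.16 with the mouse as a block. With a library left out it ranged from -1.10 (non-LRC, JV624) to -0.14 (non-LRC, JV621). On the log2(CPM + 0.5) scale, the standard deviation between libraries was 0.19 in LLRCs and 1.66 in non-LRC cells for Wwtr1, and 0.44 and 1.82 for Yap1. A larger spread in non-LRC cells was not particular to the coactivators: it was seen in 5 of the 8 members and in 83.6% of all genes tested. Tead1, Lats1 and Amotl2 had the larger spread in LLRCs.
Per kilobase, Wwtr1 exceeded Yap1 in all 8 libraries, by 3.10 to 6.54 times in LLRCs and by 1.11 to 148.6 times in non-LRC cells, the last of these in JV621 with its 10 counts of Yap1. With the longest coding transcript as the length, the ratios were 1.42 to 3.00 in LLRCs and 0.506 to 68.1 in non-LRC cells, above 1 in 7 of 8 libraries, the exception being the non-LRC library of JV624. The mean log2 ratio differed by -0.64 between the groups (exact permutation test, two-sided, p = 0.914, also 0.914 adjusted over 3 ratios of paralogs, which were chosen after values had been seen). That sign rests on JV621: the ratio was higher in LLRCs of 3 of 4 mice, and without the non-LRC library of JV621 the difference was 0.86.

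The TEAD factors bring the coactivators to DNA, and Tead1 was the one with the most reads. Tead1 (ENSMUSG00000055320, chromosome 7, 112679318 to 112906807, plus strand) stood at 32.9, 68.0, 63.2 and 41.3 CPM in LLRCs and at 45.0, 29.0, 22.4 and 22.9 CPM in non-LRC cells of JV602, JV621, JV624 and JV6314. LLRCs had more in 3 of 4 mice, JV602 being the exception. The log2 fold change was 0.78 (SE 0.37, 95% interval -0.06 to 1.63), with an unadjusted p of 0.0654 and an adjusted p of 1 in edgeR's test. Over the 19 alternatives it lay between 0.62 and 1.04. For comparison, Tead2 (ENSMUSG00000030796, chromosome 7, 45215753 to 45233644, plus strand) stood at 6.88, 3.90, 9.12 and 5.55 CPM in LLRCs and at 6.26, 6.26, 3.63 and 13.4 CPM in non-LRC cells. The groups overlapped widely (log2 fold change -0.21, SE 0.54, adjusted p = 1 by edgeR), and the value was 0.24 without the non-LRC library of JV6314. Per kilobase, Tead1 exceeded Tead2 in 7 of 8 libraries. The mean log2 ratio of Tead1 to Tead2 was 0.90 higher in LLRCs (two-sided exact permutation test, p = 0.2, adjusted p = 0.3).

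Tead3 and Tead4 had so few reads that neither passed the filter, and their values are given as counts. Tead3 (ENSMUSG00000002249, chromosome 17, 28331671 to 28350817, minus strand) had 20, 1, 2 and 1 counts in LLRCs and 11, 0, 6 and 6 counts in non-LRC cells. Most of the LLRC reads came from JV602. Tead4 (ENSMUSG00000030353, chromosome 6, 128224288 to 128300823, minus strand) had 3, 2, 3 and 1 counts in LLRCs and 6, 6, 11 and 17 counts in non-LRC cells. Every LLRC library lay below every non-LRC library in CPM (0.111 to 0.441 against 0.751 to 3.35 CPM), and LLRCs were lower in 4 of 4 mice. Of the 27591 genes with any count, 1.15% showed the same separation in this direction. The summed counts of 9 and 40 corresponded to a ratio of 6.36 (non-LRC over LLRC), with an exact 95% interval of 3.04 to 14.9 that covers counting error only. The exact permutation p was 0.029, the smallest possible. When Tead4 was let into edgeR's fit by dropping the filter, its log2 fold change was -2.60 (SE 1.09, unadjusted p = 0.0341, adjusted p = 0.633). Endothelial markers were also lower in all LLRC libraries (33.9 to 79.7 against 229.6 to 1120.3 CPM), and their part in the Tead4 reads was not tested.

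LATS1 and LATS2 are the kinases that phosphorylate YAP and TAZ. The log2 fold changes of their transcripts had opposite signs, neither past the threshold, and that of Lats2 was -0.01 without the non-LRC library of JV621. Lats1 (ENSMUSG00000040021, chromosome 10, 7681214 to 7716460, plus strand) stood at 17.9, 39.9, 55.7 and 59.7 CPM in LLRCs of JV602, JV621, JV624 and JV6314. In non-LRC cells it stood at 22.7, 18.0, 12.3 and 27.0 CPM. Only JV602 had less in LLRCs, and the 3 other LLRC values lay above every non-LRC value. The means were 43.3 ± 19.0 and 20.0 ± 6.32 CPM (SD, n = 4), and the log2 fold change was 1.11 (SE 0.45, 95% interval 0.11 to 2.12), with an unadjusted p of 0.0334 and an adjusted p of 0.893 in edgeR's test. The exact permutation p was 0.114. Over the 19 alternatives the value lay between 0.93 and 1.38, with adjusted p between 0.456 (DESeq2) and 1.

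Lats2 (ENSMUSG00000021959, chromosome 14, 57689662 to 57758388, minus strand), which is itself a YAP target, stood at 65.8, 54.4, 40.2 and 36.2 CPM in LLRCs and at 29.2, 273.8, 61.2 and 59.8 CPM in non-LRC cells. The non-LRC library of JV621 stood far above the rest, with 1311 counts. It also had the highest endothelial sum (1120.3 CPM) and the fewest genes detected (14234), and their part in its Lats2 value was not tested. The log2 fold change was -1.11 (SE 0.64, 95% interval -2.56 to 0.34, adjusted p = 1 in edgeR's test), and it was -0.01 without that library and -0.63 with the mouse as a block. LLRCs were lower in JV621, JV624 and JV6314 and higher in JV602. GENCODE M21 places 42.4% of the exon bases of Lats2 under a second gene on the same strand, Gm49361, which is not a row of the count table. Per kilobase, the log2 ratio of Lats1 to Lats2 was -0.35 ± 1.18 in LLRCs and -2.00 ± 1.55 in non-LRC cells (SD, n = 4). LLRCs had the higher ratio in 3 of 4 mice, and the difference of 1.66 had an exact two-sided permutation p of 0.143 (adjusted p = 0.3). Without the non-LRC library of JV621 the difference was 0.99.

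Nf2 and Amotl2 act upstream of or beside the kinases. Nf2, which encodes the scaffold protein merlin (ENSMUSG00000009073, chromosome 11, 4765845 to 4849536, minus strand), stood at 12.8, 12.1, 7.94 and 5.00 CPM in LLRCs and at 14.8, 12.1, 5.05 and 2.76 CPM in non-LRC cells. JV602 and JV621 were high in both groups with similar values, and JV624 and JV6314 were lower in both, with more in LLRCs. Within a mouse the log2 differences ran from -0.20 to 0.75, with a mean of 0.29 ± 0.46 (SD, n = 4). The log2 fold change was 0.12 (SE 0.61, 95% interval -1.25 to 1.49, adjusted p = 1 in edgeR's test). Amotl2, a member of the angiomotin family that holds YAP at cell junctions and is induced by it (ENSMUSG00000032531, chromosome 9, 102716672 to 102733418, plus strand), stood at 24.7, 40.8, 35.4 and 11.3 CPM in LLRCs and at 21.7, 35.9, 49.9 and 28.8 CPM in non-LRC cells. The groups overlapped, and JV6314 in LLRCs was the lowest value (log2 fold change -0.28, SE 0.46, 95% interval -1.31 to 0.75, adjusted p = 1 in edgeR's test). The value was -0.0067 without the LLRC library of JV6314 and -0.044 when JV624 was left out of the non-LRC cells.

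**Figure D3:**
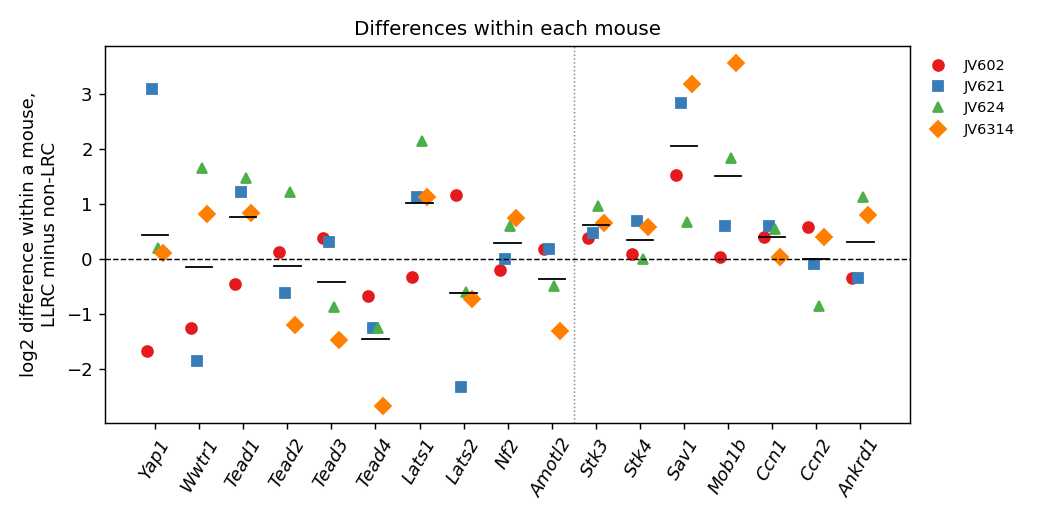
Difference between the LLRC and the non-LRC library of each mouse on the log2(CPM + 0.5) scale, for the 10 members (left of the dotted line) and 7 other genes of the pathway. Coloured symbols are mice and black lines are means of 4 mice. Tead4 lies below 0 in 4 of 4 mice and Stk3, Stk4, Sav1, Mob1b and Ccn1 lie above 0 in 4 of 4, while Yap1, Wwtr1 and Lats2 scatter to both sides.

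The rest of the cascade was read from a list of 13 kinases and cofactors, which includes Lats1 and Lats2. Of these, 12 were tested, 8 with a positive and 4 with a negative log2 fold change, and the median was 0.29 against -0.01 over all genes. None had an adjusted p below 0.05 in edgeR's test, and 2 had an unadjusted p below 0.05, Lats1 and Mob1b, both higher in LLRCs, against 1.6% of all genes in that direction. That p does not pair the libraries, and with the mouse as a block in edgeR's test the p of Lats1 was 0.0854. Of the 12, 4 (Stk3, Stk4, Sav1 and Mob1b) were higher in the LLRC library of all 4 mice, as were 7.74% of all genes tested. Mob1a and Lats1 were higher in 3 of 4 mice and Lats2 in 1 of 4. Mob1a, the paralog of Mob1b, stood at 81.2, 67.1, 76.3 and 40.6 CPM in LLRCs and at 21.8, 28.2, 54.1 and 44.4 CPM in non-LRC cells, so that JV6314 went the other way (log2 fold change 0.84, SE 0.38, adjusted p = 0.968 in edgeR's test). Mob1b, an activator of LATS, stood at 77.0, 126.9, 150.0 and 172.5 CPM in LLRCs and at 75.4, 83.9, 41.7 and 14.2 CPM in non-LRC cells. The groups overlapped only through the LLRC library of JV602, and the log2 fold change was 1.29 (SE 0.52, adjusted p = 0.893 in edgeR's test). Within mice the differences of Mob1b ran from 0.03 to 3.56 on the log2 scale, and its exact sign-flip p was 0.125. Stk3, which encodes MST2, stood at 132.6, 184.3, 132.4 and 127.8 CPM against 102.2, 131.8, 67.2 and 81.1 CPM. Its differences within mice were the most even of these, from 0.37 to 0.97 on the log2 scale (log2 fold change 0.59, SE 0.29, adjusted p = 1 in edgeR's test). Stk4, which encodes MST1, was at 0.35 on the log2 fold change scale (SE 0.41), and its difference in JV624 was 0.0056.
Sav1, the adaptor of the MST kinases, stood at 6.69, 3.08, 5.59 and 4.00 CPM in LLRCs and at 2.00, 0, 3.31 and 0 CPM in non-LRC cells (log2 fold change 1.82, SE 1.16, adjusted p = 1 in edgeR's test). Both values of 0 were in the non-LRC libraries with the fewest genes detected (14234 in JV621 and 16042 in JV6314). Without those libraries the log2 fold change was 0.88. Atl1 shares 25.4% of the exon bases of Sav1 on the opposite strand, and in union mode reads that lie over both genes are counted for neither. The lowest value of the list was that of Tnik, a kinase of the MAP4K group, at -1.28 (SE 1.20), which was -0.37 without the non-LRC library of JV6314 and -2.01 without the LLRC library of JV602.

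Upstream regulators, a list of 31 genes that includes Nf2 and Amotl2, were divided evenly. Of 30 tested, 16 had a positive and 14 a negative log2 fold change, with a median of 0.07, and 6 of them changed sign among 4 scalings of library size. Only Fat4, a giant cadherin whose relative in flies signals to the pathway, had an unadjusted p below 0.05, 1 of 30 against 3.56% of all genes in that direction. It stood at 2.13, 0.355, 1.62 and 2.11 CPM in LLRCs and at 6.51, 21.3, 17.2 and 0 CPM in non-LRC cells. Non-LRC cells had more in 3 of 4 mice, with no read in JV6314 (log2 fold change -2.84, SE 1.22, adjusted p = 0.951 in edgeR's test). The exact sign-flip p of Fat4 over mice was 0.375. Llgl1, a polarity gene, had the highest value at 1.44 (SE 1.14), which was 3.45 without the non-LRC library of JV602 and 0.52 without those of JV621 and JV6314. Amotl1, a relative of Amotl2, was at -0.18 (SE 0.34). Among the transcription partners, Vgll4, which competes with YAP for TEAD factors, averaged 15.3 ± 3.87 CPM among LLRCs and 17.9 ± 6.94 CPM among the others (SD, n = 4; log2 fold change -0.22, SE 0.42). Of the 10 partners, members included, 5 were tested, 1 with a positive and 4 with a negative value, and the median was -0.21.

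Target genes give a transcript readout of YAP and TAZ. Of 22 listed, Lats2 and Amotl2 among them, 20 were tested, 9 with a positive and 11 with a negative log2 fold change and a median of -0.13. None had an adjusted p below 0.05 in edgeR's test, and 3 (Igfbp3, Ccdc80 and Tgfb2) had an unadjusted p below 0.05, all lower in LLRCs, against 3.56% of all genes in that direction. The targets most often used as a readout did not separate the groups. Ccn1, a matricellular protein, stood at 649.9, 698.3, 955.2 and 152.9 CPM in LLRCs and at 493.7, 457.9, 651.7 and 148.0 CPM in non-LRC cells. JV6314 was low in both groups, and LLRCs were higher in 4 of 4 mice, by 0.05 to 0.61 on the log2 scale (log2 fold change 0.49, SE 0.58, adjusted p = 1 in edgeR's test). Ccn2 stood at 286.3, 355.4, 295.5 and 85.9 CPM against 191.4, 379.0, 534.3 and 64.7 CPM, with JV6314 again lowest in both groups (log2 fold change -0.19, SE 0.63). Ccn2 shares 23.2% of its exon bases with Gm15270 on the opposite strand. Ankrd1 stood at 53.5, 65.1, 156.6 and 32.6 CPM against 67.6, 82.5, 71.7 and 18.5 CPM (log2 fold change 0.36, SE 0.58), with more in LLRCs of JV624 and JV6314 and less in those of JV602 and JV621. Without the LLRC library of JV624 the value was -0.24. Fjx1 had the highest value of the list, 0.71 (SE 1.33), with at most 2.48 CPM in any library.

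The 3 targets with an unadjusted p below 0.05 encode secreted proteins. That p does not pair the libraries by mouse, and the exact sign-flip p was 0.125, the smallest possible, for each of the 3. Igfbp3, an IGF-binding protein, stood at 0.485, 4.38, 3.53 and 0.999 CPM in LLRCs and at 2.50, 37.0, 40.1 and 27.8 CPM in non-LRC cells. It was lower in LLRCs of 4 of 4 mice, and its log2 fold change was -3.51 (SE 0.96, unadjusted p = 0.00502 and adjusted p = 0.414 in edgeR's test). It was called in 2 of 19 alternatives, with an adjusted p of 0.00729 in DESeq2. Ccdc80, an extracellular matrix protein, stood at 0.679, 5.56, 3.68 and 5.22 CPM against 5.51, 43.9, 44.4 and 18.0 CPM; the log2 fold change was -2.88 (SE 0.81, adjusted p = 0.473 in edgeR's test). DESeq2 alone called it (adjusted p = 0.0178). Tgfb2, a growth factor of the TGF-beta family, stood at 18.3, 33.9, 56.5 and 32.9 CPM against 37.1, 144.5, 71.3 and 58.4 CPM (log2 fold change -1.14, SE 0.49, adjusted p = 0.951 in edgeR's test). In each of them the groups overlapped only through a single low non-LRC library, that of JV602, and 5 targets (these 3, Crim1 and Nt5e) were lower in all 4 mice, against 5.53% of genes tested. Crim1 alone among the targets tested separated the groups completely, as did 4.06% of genes tested in either direction. It stood at 29.8, 37.5, 28.8 and 40.1 CPM against 41.7, 157.4, 42.5 and 44.8 CPM. Its log2 fold change was -1.07 (SE 0.49, unadjusted p = 0.055 in edgeR's test), and its exact permutation p was 0.029. The marker sums of stellate cells and fibroblasts (275.7 to 908.9 against 703.7 to 2887 CPM) and of endothelial cells (33.9 to 79.7 against 229.6 to 1120.3 CPM) were also lower in LLRCs. The former overlapped between the groups but was lower in the LLRC library of each mouse. Of 12 hepatocyte markers, 11 had a lower mean in LLRCs, though their sum was higher in LLRCs of JV602 and JV621. The part of these cell types in the values of Igfbp3, Ccdc80, Tgfb2 and Fat4 was not tested.

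**Figure D4:**
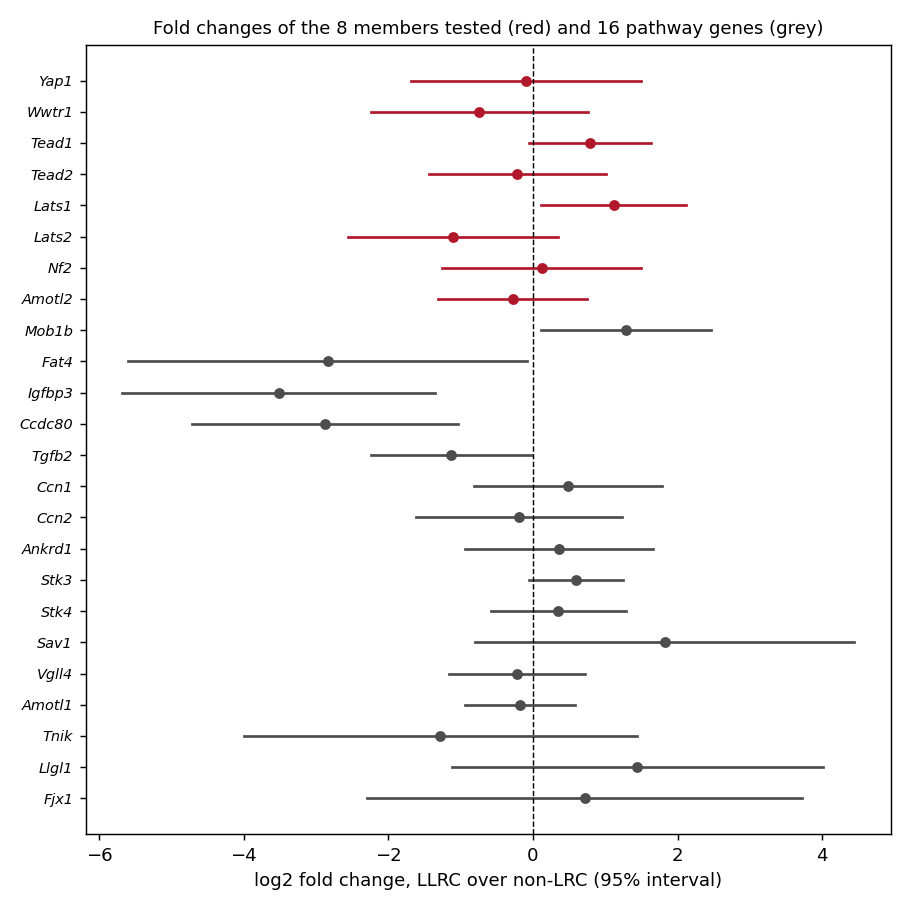
Log2 fold change, LLRC over non-LRC, with its 95% interval from edgeR's quasi-likelihood fit, for the 8 members tested (red) and 16 further genes of the pathway (grey). The dashed line marks no difference. Among the members only the interval of Lats1 (0.11 to 2.12) lies off 0, before adjustment for the number of genes tested and without the pairing by mouse.

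The genes whose log2 CPM followed a member most closely over the 8 libraries were listed as a description. These points share mouse, sort and depth, and each list holds the highest 3 of 13605 correlations over only 8 points. A library far from the rest weighs most, as the non-LRC library of JV621 was for Yap1 (2.09 CPM) and Lats2 (273.8 CPM). For Yap1 they were Gm12418 (r = 0.989), Fam8a1 (0.983) and Trmt5 (0.980), and for Wwtr1 Gm28437 (0.979), Snap23 (0.978) and Pon2 (0.976). Tead1 was followed by Wdr33 (0.960), Phldb2 (0.938) and Sh3bgrl (0.937), and Tead2 by Znrd1 (0.953), Kat2b-ps (0.935) and Gm10557 (0.905). For Lats1 they were Gm13835 (0.985), Prpf38b (0.968) and Rock2 (0.951), and for Lats2 Tnpo3 (0.982), Litaf (0.969) and Afg3l2 (0.960). Nf2 was followed by Tor4a (0.976), Pik3ip1 (0.968) and Plekhs1 (0.965), and Amotl2 by Tnfaip8l1 (0.941), Cyb5rl (0.930) and Mdm2 (0.902). No gene of the pathway lists was among them.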

How the data were processed

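RNA of sorted liver cells was sequenced in 8 libraries, 4 of LLRCs and 4 of non-LRC cells. The authors extracted the RNA with a kit for small samples and made the counts with HTSeq (union mode, strand ignored) over the exons of genes in GRCm38.p4; the aligner is not given in the sources used here. They deposited raw counts per gene for 46603 Ensembl genes, not normalized. Their own edgeR comparison (submitters' processing notes: edgeR 3.2.4), a table of fold changes and p-values, was not used.

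From the counts, genes that passed filterByExpr (13605) were tested with edgeR 4.0.16 in R 4.3.3: TMM scaling, the quasi-likelihood test with no term beside the group, p adjusted by Benjamini-Hochberg over all genes tested and a threshold of 0.05. DESeq2 1.42.0 and limma 3.58.1 served as alternatives. Standard errors are the log2 fold change over the root of the quasi-likelihood F. Exact permutation and sign-flip tests of single genes used log2(CPM + 0.5). The permutation tests of the paralog ratios used log2 ratios of levels per kilobase, with no pseudocount. The scripts were tested on simulated counts.

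Symbols, lengths (merged exons) and coordinates came from GENCODE M21 for GRCm38 or a table of gene names, which matched 46091 of 46603 identifiers. Promoter windows came from RefSeq (GRCm38.p6). The members and gene lists were chosen with earlier results of these data known. Genes outside the members were named if listed in the pathway and below an unadjusted p of 0.05, if fixed by name (Ccn1, Ccn2, Ankrd1, Stk3, Stk4, Sav1, Vgll4, Amotl1), or if highest or lowest of their list. Crim1, Nt5e, Mob1a, Cftr, Aqp1 and Ptprc were named after their values were seen.

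Both libraries of a mouse come from the same animal, so they are paired; deviations of their genes from the group means correlated at 0.0961, 0.0737, 0.00334 and 0.171 in JV602, JV621, JV624 and JV6314. Pearson's r across genes was 0.884 to 0.919 between LLRC libraries, 0.627 to 0.795 between non-LRC libraries and 0.687 to 0.888 between the groups.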

Additional observations from a re-analysis of the deposited data

Results flagged for a closer look

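Of 52 groups of 4 libraries, 3 held a library whose gap to its nearest neighbour exceeded Dixon's 95% critical value, where chance gives about 1 in 20. Tead3 in the LLRC library of JV602 stood at 1.94 CPM (20 counts), against 0.111 to 0.294 CPM in the other LLRC libraries. Lats2 in the non-LRC library of JV621 stood at 273.8 CPM (1311 counts), against 29.2 to 61.2 CPM in the other non-LRC libraries. Stk3 in the LLRC library of JV621 stood at 184.3 CPM (1558 counts), against 128 to 133 CPM in the other LLRC libraries.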

How the results depend on the processing

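In the quasi-likelihood test 0 of 13605 genes were called, with 702 at an unadjusted p below 0.05. The count was 11 with no filter beyond 1 count, 221 in DESeq2, 159 in edgeR's exact test, 29 in limma, 0 to 6 with a library left out (6 without the non-LRC library of JV602), and, in settings chosen after seeing the data, 73 with the newer quasi-likelihood dispersion and 1 without the non-LRC libraries of JV621 and JV6314. Members called stayed at 0 throughout. With the mouse as a replicate block (paired), 0 genes were called, with 569 at an unadjusted p below 0.05, and the block called no member, with Lats1 at an unadjusted p of 0.0854.

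Of 152 member fold changes under alternatives, 140 kept their sign and their side of the threshold and 12 changed sign. Yap1 was 0.46 in limma, 0.36 with the block and -0.47 to 0.40 with a library left out. These 2 fits moved the median of all genes by over 0.1, to 0.16 in limma and 0.14 with the block. With a library left out, Tead2 ranged from -0.45 to 0.24, Nf2 from -0.17 to 0.50 and Lats2 from -1.43 to -0.01, the last without the non-LRC library of JV621. Amotl2 ranged from -0.51 to -0.0067. Without the non-LRC library of JV621, the difference of the log2 ratio of Wwtr1 to Yap1 (added after seeing the data) turned from -0.64 to 0.86. Without the non-LRC libraries of JV621 and JV6314, Tead2 was 0.37, Lats2 0.14 and Nf2 -0.063. Among other named genes, over 19 alternatives the log2 fold change of Ccn2 lay between -0.52 and 0.26, Ankrd1 -0.24 and 0.62, Ccn1 0.11 and 0.82, Sav1 0.88 and 2.97, Stk4 0.16 and 0.57, Tgfb2 -1.45 and -0.60, Fat4 -3.25 and -1.67, Fjx1 -0.21 and 1.62, Vgll4 -0.43 and 0.021, and Amotl1 -0.38 and 0.18. The cause of these changes was not tested. Tead3 and Tead4 had at most 20 counts in a library, so counting error bears most on their values.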
